A study of Mus musculus with 14 samples.

Results

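The transcript of Rnf213, which encodes a very large ubiquitin ligase, is described here across 14 RNA libraries of mouse embryonic fibroblasts (MEFs), a cultured connective tissue cell. It is 1 of 1399 transcripts counted in every library. It was chosen by its measured fold changes in these libraries, for a lower level with cysteamine and with knockdown of Ctns and a high level in the rescue of that knockdown, so its levels in those libraries are a description and carry no test. The starvation libraries played no part in the choice, and differences among them are tested.

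Ctns encodes cystinosin, the exporter of lysosomal cystine, and the drug cysteamine clears lysosomes of cystine. All 7 groups held 2 libraries of polyadenylated RNA from MEF cells of genotype WT. A second experiment comprised CTNS rescue (cells transfected with sh-CTNS, a short hairpin RNA, together with a CTNS plasmid), CTNS knockdown (sh-CTNS alone), cysteamine treatment, and the untreated group NT2. A first experiment comprised cysteine starvation, full amino acid starvation and the untreated group NT. The tie between controls and treatments was read from the sample names and the column names, in which all libraries of the first experiment carry a shared prefix, and is an assumption. No library with a control hairpin or an empty plasmid was analysed here, and the labels give no dose, duration or clone. Nor do they say whether both libraries in a group represent separate cultures, and p-values therefore reflect a spread that may be technical alone.

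RNF213 joins a ring of ATPase domains of the AAA+ family, the motor type found in dynein, to a ligase module that includes a RING finger, a fold in which cysteines and a histidine hold zinc. It attaches ubiquitin to proteins and also to bacterial lipopolysaccharide, and it has been found on lipid droplets. In human cells the gene is induced by interferon, and human variants raise the risk of moyamoya disease, a narrowing of the brain's arteries.

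The counted transcript, ENSMUST00000093902, is 16716 bases long in 67 exons and has 5152 codons, in the GENCODE M21 annotation of mouse chromosome 11 (plus strand). Its defining stretches are shown because they mark it as both an ATPase and a RING ligase. The first is the single Walker A motif found in the open frame, the nucleotide-binding loop of an ATPase, at codons 2381 to 2388, with the codons of its fixed residues in capitals. The second is the RING finger at codons 3947 to 3985, with the codons of its 8 zinc-binding residues in capitals.
Walker A: GGAgagacaggctgtGGGAAAACC
RING finger: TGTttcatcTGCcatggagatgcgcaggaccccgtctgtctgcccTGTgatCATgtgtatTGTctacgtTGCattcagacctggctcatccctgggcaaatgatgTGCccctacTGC
The 300 bases around the RefSeq start of Rnf213, chr11:119389849-119390148 in GRCm38.p6 on the plus strand, are shown as the longer context of the gene, with each CpG in capitals.
Rnf213 start region: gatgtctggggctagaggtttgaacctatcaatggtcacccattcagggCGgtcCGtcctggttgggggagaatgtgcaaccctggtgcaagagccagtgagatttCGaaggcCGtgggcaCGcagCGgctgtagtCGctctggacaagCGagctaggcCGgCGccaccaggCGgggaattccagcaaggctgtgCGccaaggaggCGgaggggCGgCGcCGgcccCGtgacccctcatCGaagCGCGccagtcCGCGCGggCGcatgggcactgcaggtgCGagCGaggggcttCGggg
This window held 27 CpGs, against a median of 7 over 32851 RefSeq start regions of the same length. None of 5 motifs searched on both strands lay in it, which says only that these letters are not in this window. They were the interferon-stimulated response element (in 3.44% of all start regions), the STAT element TTCNNNGAA (8.3%), the ATF4 element TGATGNAA (3.97%), the antioxidant element TGACNNNGC (12.39%) and the CACGTG box of TFEB targets (7.15%). The counted transcript starts 3001 bases downstream of this RefSeq start. Its open frame begins at its base 1, so its annotated start need not be where transcription begins. Whether the window is the promoter in use in these cells was not tested.

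Reads of 2 further Rnf213 transcripts could be split with the counted one. Of all windows of 50 bases in it, 99.7% also occur in ENSMUST00000131035 and 13.06% in the short ENSMUST00000172235, and neither was among the transcripts analysed here. A930037H05Rik overlaps the gene on the opposite strand, and no source used here states whether counting used strand. Whether it overlaps exons of the counted transcript was not examined, so some of its reads may have been counted for Rnf213.

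Totals over the 1399 transcripts ran between 64530 and 165747 counts in the second experiment and between 25697 and 51224 in the first, and they cover the listed transcripts only. Ctns was not among them, so the knockdown was not checked. Of 20 fibroblast markers 14 were measured, against 1 of 12 epithelial (Cdh1), 1 of 12 endothelial (Flt1), 1 of 15 muscle (Ttn) and 0 of 12 immune markers. A class of 341 transcripts, chosen as high in NT compared with NT2, took 40.6% ± 1.71 of counts in the rescue, 32.3% ± 0.495 in the knockdown, 16.8% ± 0.807 with cysteamine and 9.49% ± 0.145 in NT2 (SD, n = 2 each). It took 47.6% ± 14.05 in cysteine starvation, 80.8% ± 2.88 in full amino acid starvation and 75.3% ± 16.2 in NT. Rnf213 is not in this class. Levels below are in CPM, counts scaled to a fixed total over the listed transcripts, with library sizes adjusted by edgeR's TMM method.

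Across the 7 groups the Rnf213 level spanned 8.37-fold. It was highest in the rescue, at 3548 ± 272 CPM (SD, n = 2 here and for each group). NT2 followed at 2091 ± 82.5 CPM and cysteine starvation at 1348 ± 101 CPM. Then came the knockdown at 845 ± 19.5 CPM, NT at 822 ± 53.6 CPM and cysteamine at 735 ± 42.8 CPM, with full amino acid starvation lowest at 424 ± 22.1 CPM. Knockdown and NT overlapped, and NT and cysteamine differed by 86.9 CPM, less than the sum of their SDs of 96.4 CPM, so these neighbours did not differ beyond their spread. Every other pair of neighbours was at least 1.55-fold apart with no overlap. An SD of 2 scaled values can understate counting error, as NT rests on 24 and 8 counts and full amino acid starvation on 6 and 10. An exact Poisson 95% interval for 8 counts runs between 3.45 and 15.8. The closeness of the NT libraries also depends on the scaling, as Rnf213 made up 0.0706% and 0.0311% of their counts. The untreated groups themselves were 2.55-fold apart, with NT2 above NT, so a level set across the experiments also carries whatever separates them.

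**Figure D1:**
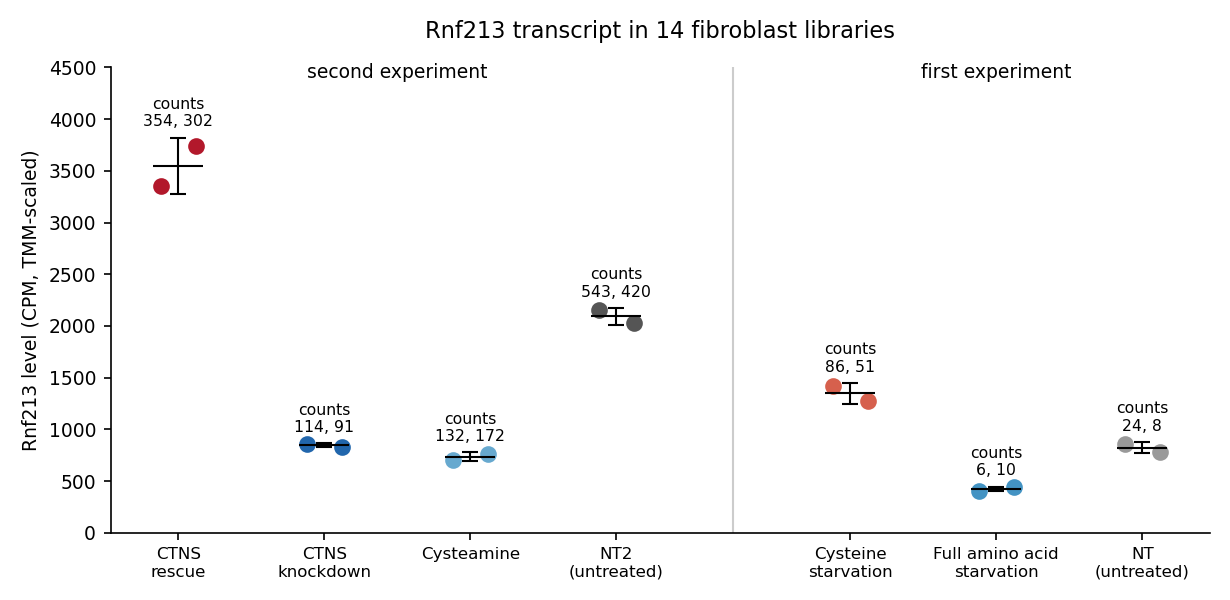
Rnf213 level in CPM (vertical axis, TMM-scaled) in each library (points), with the group mean and SD (line and bar, n = 2) and the 2 raw counts above. The rescue stands highest at 3548 CPM and full amino acid starvation lowest at 424 CPM, on counts of 6 and 10.

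In the second experiment the question was how fibroblasts differ when lysosomal cystine is cleared by the drug, or when its exporter is knocked down and put back. Raw counts of Rnf213 were 354 and 302 in the rescue, 114 and 91 in the knockdown, 132 and 172 with cysteamine, and 543 and 420 in NT2, although the NT2 libraries were also among the deepest. After scaling, the rescue libraries measured 3355 and 3741 CPM, the knockdown libraries 859 and 831 CPM, the cysteamine libraries 704 and 765 CPM and the NT2 libraries 2149.8 and 2033 CPM. The rescue libraries lay above all others and both cysteamine libraries below all others of this experiment. No pair of groups overlapped.

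With cysteamine the log2 fold change against NT2 was -1.51 ± 0.21 (SE), a level 2.84-fold lower in cysteamine, and only 6 of 1399 transcripts had a lower value. In the knockdown it was -1.31 ± 0.21 against NT2, 2.47-fold lower, at rank 59 from the lowest. The knockdown level was 1.15 times the cysteamine level. In the rescue Rnf213 stood 2.07 ± 0.21 above the knockdown on the log2 scale, 4.19-fold higher, at rank 4 from the highest. It also stood above the untreated group, by 0.76 ± 0.20 or 1.69-fold, at rank 319. These values chose the gene and are given with no test.

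**Figure D2:**
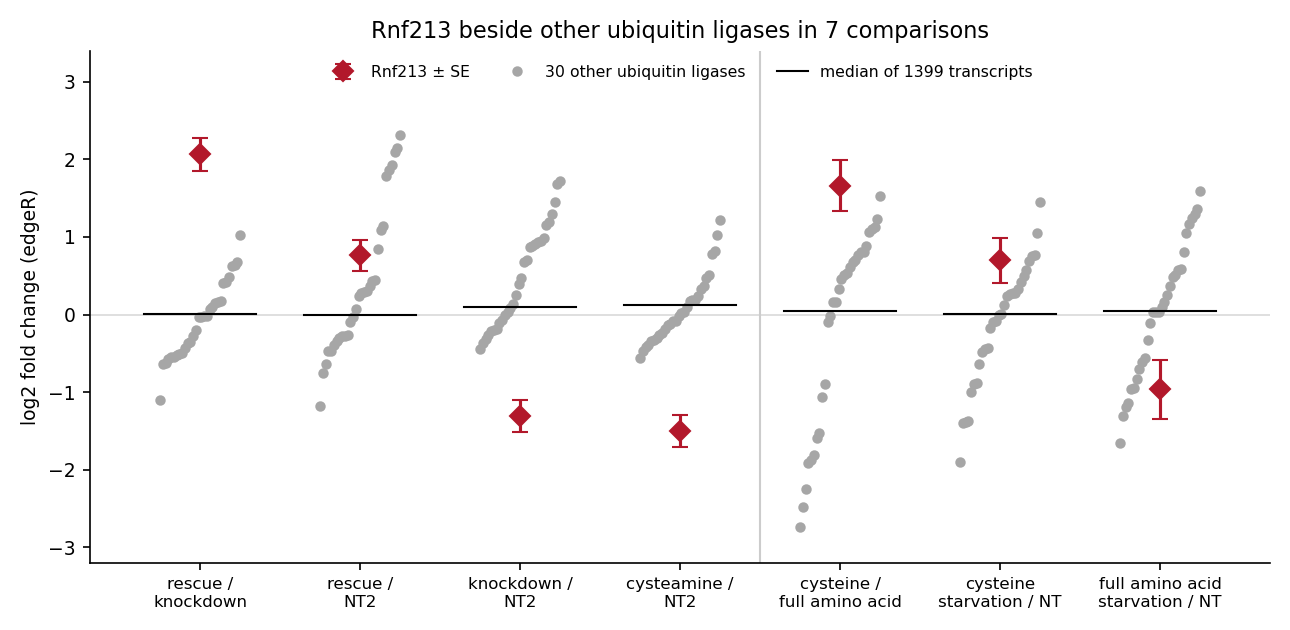
Log2 fold change from edgeR (vertical axis) of Rnf213 (diamonds, ± SE), of 30 other ubiquitin ligases (grey points, sorted within each comparison) and the median of 1399 transcripts (black lines) in 7 comparisons. Rnf213 lies outside the range of the 30 in 4 comparisons. It stands at 2.07 in rescue against knockdown, -1.31 in knockdown against NT2 and -1.51 with cysteamine, values for which it was chosen. It stands at 1.66 in cysteine against full amino acid starvation, an order lost in 3 of 4 fits with 1 library left out.

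The first experiment asks what the loss of cysteine, or of all amino acids, changes, and it was not used to choose the gene. Rnf213 was higher in cysteine starvation than in full amino acid starvation. Raw counts were 86 and 51 with cysteine starvation, 6 and 10 with full amino acid starvation, and 24 and 8 in NT. The counting error on the lowest of these is wide, as an exact Poisson 95% interval for 6 counts runs between 2.2 and 13.1, and it covers counting error only. After scaling, the levels were 1419 and 1277 CPM with cysteine starvation, 408 and 439.6 CPM with full amino acid starvation, and 859.5 and 784 CPM in NT. The 3 groups did not overlap, and NT lay between the starvations.

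Cysteine starvation exceeded full amino acid starvation by 1.66 ± 0.33 on the log2 scale, or 3.16-fold (edgeR's quasi-likelihood test, adjusted p = 0.00432 after Benjamini-Hochberg adjustment over 1399 transcripts). In this comparison 2.57% of all transcripts were called higher and 12.4% lower at an adjusted p of 0.05, and Rnf213 had the rank 22 from the highest fold change. The call was lost without cysteine starvation replicate 1 (adjusted p = 0.0513) and when the first experiment was fitted alone (log2 fold change 1.75 ± 0.65, adjusted p = 0.0858). Over 13 alternatives the adjusted p ran between 0.0012 and 0.0858 by edgeR, DESeq2 or limma. The call held with the 341 transcripts that are high in NT left out (1.36 ± 0.36, adjusted p = 0.0387 by edgeR). The fit of all 14 libraries shares 1 estimate of the spread, and libraries of the first experiment differed more within groups. Chi-square per degree of freedom, a measure of spread beyond counting noise, was 4.22 in NT. It was 4.55 in cysteine and 2.54 in full amino acid starvation, against 1.55 to 1.95 in the second experiment. The adjusted p of 0.00432 thus rests partly on the smaller spread there.

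Against the untreated cells neither starvation passed. Cysteine starvation stood at 0.70 ± 0.29 relative to NT, 1.62-fold, with an adjusted p of 0.233 by edgeR. Full amino acid starvation stood at -0.97 ± 0.39, 1.95-fold lower in the starved cells, with an adjusted p of 0.471 by edgeR. In these comparisons 0% of all transcripts were called by edgeR, with 230 at an unadjusted p under 0.05 for cysteine and 109 for full amino acid starvation. DESeq2 called 67 transcripts for cysteine and 0 for full amino acid starvation, and limma 5 and 13. Set against NT2 in place of NT, Rnf213 in cysteine starvation turned to -0.63 ± 0.22 (adjusted p = 0.0548 by edgeR), and in full amino acid starvation it was -2.29 ± 0.31 (adjusted p = 1.76e-05 by edgeR).

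Because the libraries differed in makeup, Rnf213 counts were also set against the summed counts of 3 gene lists in the same library. Per 1000 counts of the 30 other ubiquitin ligases there were 238 ± 23.4 Rnf213 counts in the rescue, 55.3 ± 0.85 in the knockdown, 63.7 ± 4.95 with cysteamine and 175.65 ± 0.532 in NT2. The same ratio was 71.9 ± 18.7 in cysteine starvation, 10.01 ± 0.883 in full amino acid starvation and 26.1 ± 7.98 in NT. By this measure the order within each experiment was nearly that of the CPM levels, with knockdown and cysteamine exchanged. The ligase sum is no fixed reference, as 10 of the 30 belong to the class that is high in NT. Of these, March6 stood at 17670 ± 6046 CPM in NT and 24512 ± 402 in full amino acid starvation, against 532 ± 109 in NT2. The ratio therefore still carries part of the difference in makeup.

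The fibroblast markers gave another picture for the knockdown. Per 1000 counts of these 14 markers Rnf213 had 158 ± 13.6 counts in the rescue, 63.8 ± 0.914 in the knockdown, 28.01 ± 1.23 with cysteamine and 48.5 ± 0.75 in NT2. The knockdown therefore lay above NT2 relative to the markers, and only cysteamine lay below it. The markers themselves made up 2.75% ± 0.0571 of counts in the rescue, 1.80% ± 0.00943 in the knockdown, 3.63% ± 0.0662 with cysteamine and 6.63% ± 0.275 in NT2. Among the 14, knockdown cells had 11 called lower and 0 higher than NT2 by edgeR, where 13.2% of all transcripts were called lower. Lox, whose product crosslinks collagen, stood at -2.83 ± 0.21 (adjusted p = 7.1e-07), and the collagen genes Col5a2 at -2.49 ± 0.28 (2.74e-05) and Col1a2 at -2.84 ± 0.35 (5.31e-05). With cysteamine 5 were called lower and 0 higher, against 5% of all transcripts called lower and 5.5% higher, with Col6a2 at -1.40 ± 0.21 (adjusted p = 0.000705). Rescue over knockdown gave 4 called higher and 0 lower, against 0.643% of all transcripts higher, with Postn at 3.01 ± 0.58 (adjusted p = 0.0316) and Col6a1, Col1a2 and Col6a2 between 1.10 and 1.63, so part of the markers moved with Rnf213 there. Of the markers of other cell types Cdh1, the epithelial cadherin gene, was called higher in the knockdown against NT2 (2.39 ± 0.73, adjusted p = 0.0218), and Ttn, the muscle titin gene, likewise (1.60 ± 0.30, 0.00118), and both were lower in cysteine than in full amino acid starvation (-2.81 ± 0.84, 0.0366, and -2.05 ± 0.42, 0.00511). The endothelial receptor gene Flt1 was not called in any of the 7 comparisons. Fewer cells of a type and less RNA per cell cannot be told apart in bulk samples, and the part of the markers in the values of Rnf213 was not tested.

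In the first experiment the ratio to fibroblast markers was 33.6 ± 4.59 in cysteine starvation, 16.6 ± 3.57 in full amino acid starvation and 34.7 ± 8.59 in NT. Cysteine starvation, at 30.4 to 36.9, stayed above full amino acid starvation, at 14.1 to 19.1, without overlap. It overlapped NT, whose libraries had 28.7 and 40.8. Markers held 4.07% ± 0.69 of counts in cysteine starvation, 1.30% ± 0.397 in full amino acid starvation, and 0.763% and 2.46% in the NT libraries. Of the 14, 1 was called lower in cysteine against full amino acid starvation by edgeR (Postn, a matrix protein gene, given further on) and 0 higher, against 12.4% of all transcripts lower and 2.57% higher. Most markers went the other way from Postn, as 12 of the 14 were above 0. Their median was 0.55, against 0.051 for all transcripts. At an unadjusted p under 0.05 by edgeR 4 were higher and 1 lower.

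**Figure D3:**
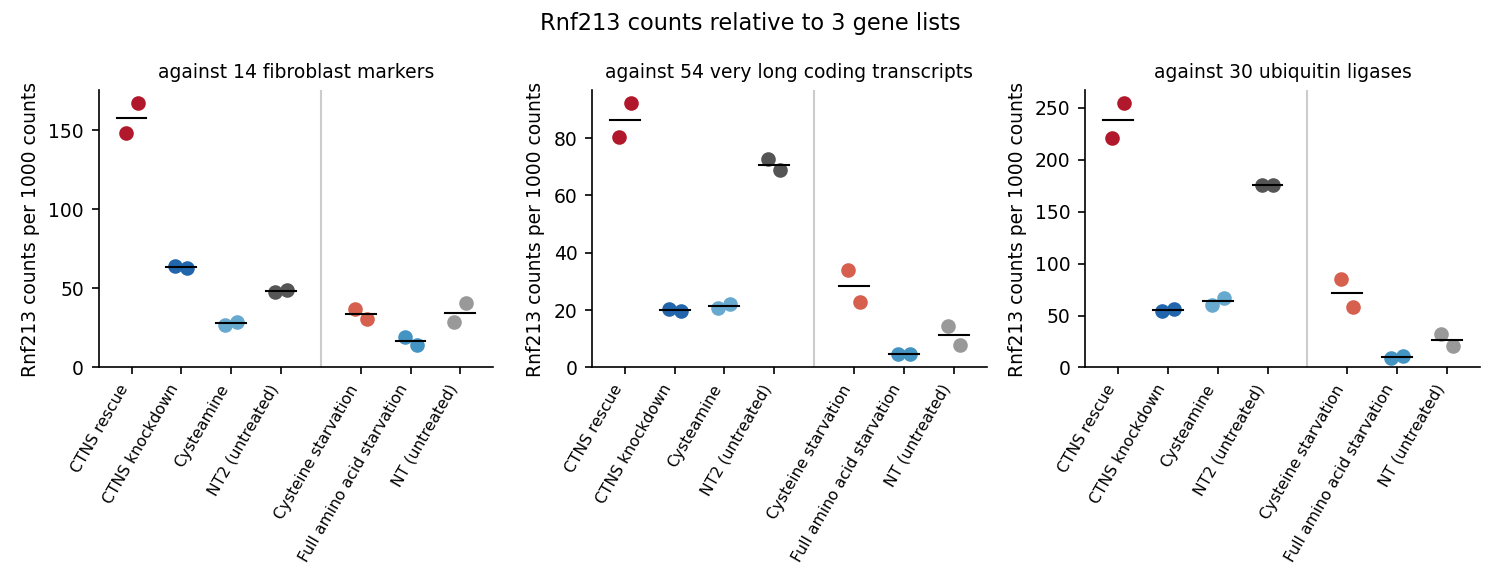
Rnf213 counts per 1000 counts of 14 fibroblast markers, of 54 very long coding transcripts and of 30 ubiquitin ligases (vertical axes), for each library (points) with the group mean (lines). The rescue is highest in each panel, and the knockdown lies above NT2 relative to the markers (63.8 against 48.5) and below it relative to the ligases (55.3 against 175.65).

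Ubiquitin ligases choose which proteins are marked with ubiquitin, and 30 others were measured of 225 listed. With cysteamine 0 of the 30 were called by edgeR, against 10.5% of all transcripts, with 4 at an unadjusted p under 0.05. DESeq2 also called 0, against 7.01% of all transcripts higher and 4.79% lower. The 0 by limma says nothing about the ligases, as limma called 0% of all transcripts. With the second experiment fitted alone edgeR called 1 higher and 3 lower, against 16.1% and 10.7% of all transcripts. With a replicate block it called 1 higher and 0 lower, against 11.7% and 7.58%. In the fit of all libraries their log2 fold changes lay between -0.56 for Hectd4 and 1.22 for Trim47. Of their values in this comparison, all 30 were above that of Rnf213. Because Rnf213 was chosen for its values in the second experiment, its place among the ligases there is a description only.

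Knockdown cells had 10 of the 30 ligases called higher than in NT2 and 0 lower by edgeR, where 17.6% of all transcripts were called higher. Among them Traf7, a RING ligase of stress kinase signalling, stood at 1.68 ± 0.32 (adjusted p = 0.00119). March6, which removes faulty proteins and sterol enzymes at the endoplasmic reticulum, stood at 1.72 ± 0.43 (adjusted p = 0.00739), Trim25, which activates an antiviral RNA sensor, at 1.19 ± 0.31 (0.00937) and the giant ligase Herc1 at 0.95 ± 0.25 (0.0105). Of these 10, 6 belong to the class that is high in NT. The median of the 30 was 0.43, against 0.092 for all transcripts. With that class left out 6 of 20 ligases were called higher, against 16.3% of all transcripts in that fit. Leaving out 1 library at a time gave 2 to 5 of 30, against 7.22% to 10.4% of all transcripts, and the second experiment alone gave 9 higher and 2 lower, against 19.7% and 20.9% of all transcripts. The lowest ligase was Ddb1, the adaptor of cullin 4 ligases, at -0.44 ± 0.25, against -1.31 for Rnf213.

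In the rescue set against the knockdown Rnf213 lay above all 30 ligases. Against the knockdown 0 of 30 were called by edgeR, where 0.643% of all transcripts were called. At an unadjusted p under 0.05 by edgeR there were 5, where 154 of 1399 transcripts had one. The limma fit also called 0, against 0.0715% of all transcripts higher. DESeq2 called 0 of the 11 it gave an adjusted p, against 0.858% of all transcripts higher and 0.5% lower. At such low shares a 0 among the ligases says little about them. With the second experiment fitted alone edgeR called 0 higher and 1 lower, against 2.93% and 1.22% of all transcripts. The highest was Trim65 at 1.02 ± 0.68, below the 2.07 of Rnf213. Against NT2 8 were called higher and 1 lower in the rescue by edgeR, against 18.7% of all transcripts higher and 12.9% lower. The smallest adjusted p among these was that of Traf7, at 2.09 ± 0.32 (adjusted p = 0.000168), followed by Trim25 at 1.87 ± 0.30 (0.000293), the caspase inhibitor Xiap at 1.79 ± 0.33 (0.000756) and March6 at 2.15 ± 0.44 (0.00162). The one that was lower was the scaffold Cul3 (-1.18 ± 0.40, adjusted p = 0.0341). With the class that is high in NT left out 3 of 20 were higher and 2 lower, near the 12.9% higher and 14.3% lower of all transcripts in that fit.

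In cysteine against full amino acid starvation 7 of the 30 ligases were called lower and 0 higher by edgeR, against 12.4% of all transcripts lower and 2.57% higher. Yet 18 of the 30 were above 0, as Rnf213 was, and their median was 0.39, against 0.051 for all transcripts. Traf7 stood at -2.25 ± 0.35 (adjusted p = 0.00132), Trim25 at -1.91 ± 0.33 (0.00223), Bfar at -2.48 ± 0.46 (0.00331) and March6 at -1.87 ± 0.42 (0.00895). All 7 belong to the class that is high in NT, so leaving that class out removes them. Of the 20 ligases left 0 were called, against 0.378% of all transcripts higher and 1.32% lower in that fit. With so few calls, this 0 says little about the 20. Without cysteine starvation replicate 1 the number called lower was 1. The deposited totals in place of TMM gave 13 higher and 3 lower, against 33.9% of all transcripts higher and 5.29% lower, and under this scaling the median of all transcripts was 1.09. Rnf213 exceeded that median by 1.62 with the totals and by 1.61 with TMM. It had a higher value than each of the 30, the nearest being the scaffold Cul4a at 1.52 ± 0.60. This order was lost in 3 of the 4 fits with 1 library left out. Rnf213 stood at 1.58 and the highest ligase at 1.89 without cysteine starvation replicate 1, at 1.62 and 1.97 without full amino acid starvation replicate 1, and at 1.73 and 2.35 without its replicate 2.

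Per kilobase of transcript, Rnf213 was among the more abundant ligases where it was high and near their middle where it was low. In the rescue it measured 212 ± 16.3 CPM per kb, rank 4 of 31 with itself included, and in NT2 125 ± 4.94 CPM per kb, also rank 4. It ranked 16 in the knockdown (50.5 ± 1.17 CPM per kb) and 15 with cysteamine (44.0 ± 2.56 CPM per kb). In the first experiment it ranked 10 in cysteine starvation (80.6 ± 6.03 CPM per kb), 20 in full amino acid starvation (25.4 ± 1.32 CPM per kb) and 12 in NT (49.2 ± 3.21 CPM per kb). The median of the other ligases moved less, between 34.9 and 48.2 CPM per kb in the 7 groups.

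Of 11 other AAA+ ATPases measured, 0 were called by edgeR with cysteamine and 1 had an unadjusted p under 0.05. Knockdown cells had 2 called higher than NT2 and 0 lower, a share near the 17.6% of all transcripts called higher. They were the dynein heavy chain Dync1h1 (0.87 ± 0.20, adjusted p = 0.00471) and the ribosome assembly ATPase Mdn1 (0.90 ± 0.30, adjusted p = 0.0313). In the rescue 3 were called higher than in NT2, against 18.7% of all transcripts, both of these and the axonemal dynein gene Dnah17 (3.37 ± 0.70, adjusted p = 0.00193), and against the knockdown 0 were, also at an unadjusted p. In cysteine against full amino acid starvation 0 of 11 were called by edgeR, with 6 at an unadjusted p under 0.05, and their values lay between -2.08 and 1.10, all below that of Rnf213. Mean levels of Dnah17 and Mdn1 were higher in NT (896 ± 811 and 995 ± 394 CPM) than in NT2 (26.8 ± 9.96 and 374 ± 46.8). That of Dync1h1 was lower in NT (554 ± 229 CPM) than in NT2 (1084 ± 6.56).

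Only 3 of 89 interferon-stimulated genes were measured, 1 of which (Trim25) is also among the ligases. In the rescue against NT2 Samhd1, which destroys nucleotides needed by viruses, stood at 1.27 ± 0.21 (adjusted p = 0.000326 by edgeR), with Trim25 as given above and the class I antigen gene H2-D1 at 0.999 ± 0.37 (0.0543). In the knockdown H2-D1 was called higher at 1.36 ± 0.33 (adjusted p = 0.00631) and Samhd1 stood at 0.30 ± 0.23 (0.361). In cysteine against full amino acid starvation Samhd1 (-1.47 ± 0.31, adjusted p = 0.00625) and Trim25 were lower and H2-D1 stood at 0.55 ± 0.85, where Rnf213 was higher. With cysteamine the 3 lay between -0.59 and 0.47, and 0 were called by edgeR, also at an unadjusted p. Trim25 belongs to the class that is high in NT. Samhd1 also had a higher level in NT (447 ± 77.5 CPM) than in NT2 (187 ± 1.92), as had H2-D1 (121 ± 32.0 and 58.7 ± 0.918). The part of this difference in their values was not tested.

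Ubiquitin itself was represented by Ubb and Rps27a, which encode ubiquitin as a chain and fused to a ribosomal protein, and by the E2 gene Ube2o. In the rescue against NT2 Ubb (-1.20 ± 0.24, adjusted p = 0.00135 by edgeR) and Rps27a (-1.37 ± 0.29, adjusted p = 0.00193) fell and Ube2o stood at 0.12 ± 0.39. In the knockdown Rps27a fell (-0.89 ± 0.25, adjusted p = 0.0144) and Ubb stood at -0.47 ± 0.20 (0.0926). Rps27a has many pseudogenes that can share its reads. Of the lipid droplet genes Gpat3, an enzyme of triglyceride synthesis, and Vps13a, a lipid transfer protein, were measured. Against NT2, Gpat3 was higher in knockdown cells (1.76 ± 0.53, adjusted p = 0.0203 by edgeR) and rescue cells (2.02 ± 0.54, adjusted p = 0.00975), while Vps13a stood at -0.054 ± 0.30 and -0.24 ± 0.33. In cysteine against full amino acid starvation Gpat3 was lower (-1.79 ± 0.57, adjusted p = 0.0442). Its mean level also differed between the untreated groups, at 682 ± 559 CPM in NT and 64.9 ± 37.0 in NT2. The part of this difference in its values was not tested.

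By sign alone the pattern that chose Rnf213 was common, as 220 of 1399 transcripts were below 0 with cysteamine and with knockdown and above 0 in rescue against knockdown. It was less frequent at larger folds. A log2 fold change of -1 or lower was found for 3.29% of all transcripts with cysteamine and for 7.29% in the knockdown, both against NT2. Of 1399, 26 had it in both comparisons, and 10 of these also had 1 or higher in the rescue against the knockdown, as 3.36% of all transcripts did. These comparisons share the NT2 or the knockdown libraries, so the joint count carries no test. Besides Rnf213 the 10 held the collagen genes Col1a2, Col6a1 and Col6a2, the matrix genes Postn, Emilin1 and Ccdc80, the guidance factor gene Slit3, the sphingomyelinase gene Smpd3 and the junction gene Plekha7, named after their values were seen. Smpd3 stood at -1.49 ± 0.22 with cysteamine, at -2.35 ± 0.27 upon knockdown, and at 1.03 ± 0.34 in the rescue against the knockdown. Ccdc80 stood at -1.42 ± 0.31, -1.37 ± 0.34 and 1.66 ± 0.36 in the same comparisons.

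In the rescue against NT2, a contrast that follows from those used for the choice, the 10 spread widely. Postn stood at 1.54 ± 0.42, Rnf213 at 0.76 ± 0.20, Emilin1 at 0.43 ± 0.41 and Ccdc80 at 0.29 ± 0.30. The errors of Rnf213, Emilin1 and Ccdc80 overlap. Below 0 were Col6a1 at -0.098 ± 0.20, Plekha7 at -0.19 ± 0.62, Col6a2 at -0.56 ± 0.22, Slit3 at -0.98 ± 0.26, Col1a2 at -1.21 ± 0.33 and Smpd3 at -1.32 ± 0.25. In the starvation libraries, which took no part in this choice, of the 9 others only Postn was called by edgeR in cysteine against full amino acid starvation. It was lower (-2.41 ± 0.56, adjusted p = 0.0109), while 5 of the 9 were above 0, with Col1a2 highest at 0.99 ± 0.36 (adjusted p = 0.0774) against 1.66 for Rnf213.

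**Figure D4:**
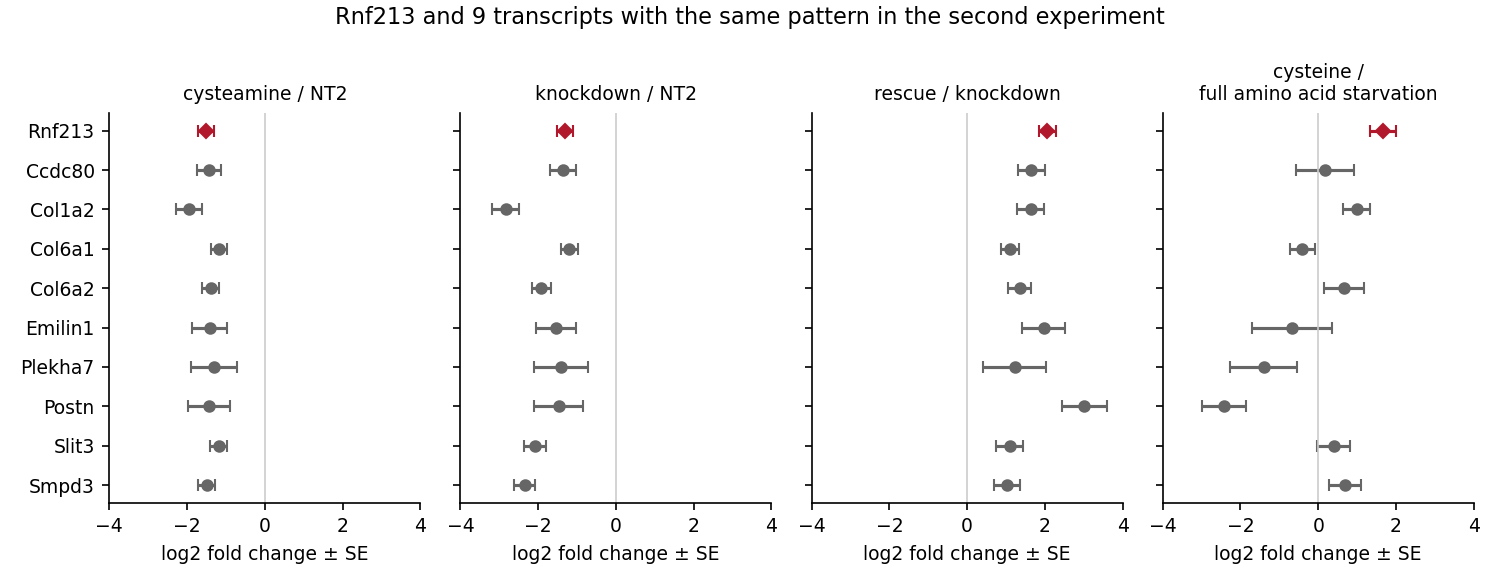
Log2 fold change ± SE (horizontal axes) of Rnf213 (diamonds) and of 9 transcripts with the same pattern (points) in 4 comparisons. The first 3 panels chose the transcripts, and in the last, cysteine against full amino acid starvation, Rnf213 stands at 1.66 and Postn at -2.41.

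By likeness of log2 CPM over all 14 libraries, among 896 transcripts with a mean count of at least 20, the nearest to Rnf213 was the chromatin remodeller gene Chd3 (Pearson r = 0.82, Spearman rho = 0.85). Acta2, the smooth muscle actin gene (r = 0.81, rho = 0.73), Ccdc80 (r = 0.81, rho = 0.67), the actin-binding gene Lima1 (r = 0.78, rho = 0.80) and Syne2, a giant linker of nucleus and cytoskeleton (r = 0.77, rho = 0.74), followed, and the median r was 0.20. Libraries share groups, experiments and depth, so these values are a description with no test. Over the 8 libraries of the second experiment, among 1120 transcripts, they were the respiratory chain gene Ndufa2 (r = 0.97, rho = 0.76), the tyrosyl-tRNA synthetase gene Yars (r = 0.96, rho = 0.95), the mucin gene Muc16 (r = 0.93, rho = 0.86), Col6a1 (r = 0.93, rho = 0.69) and Ccdc80 (r = 0.92, rho = 0.90), with a median of -0.053. A high r did not mean a like size, as Ndufa2 stood at -0.27 ± 0.30 with cysteamine, where Rnf213 stood at -1.51. Ccdc80 alone was in both sets of 5.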

How the data were processed

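RNA was captured on oligo(dT) beads, fragments of 50 to 100 nucleotides were excised and libraries were amplified by PCR, per the labels' protocols. The authors deposited whole-number counts per Ensembl transcript for each library, although the tables are named as CPM. bcl2fastq 2.20.0.422, cutadapt 2.8, Bowtie 1.2.3, STAR 2.7.10a and the assembly GRCm39 are named in the submitters' processing notes, while no source used here names the counting tool, strand setting or annotation. No transcript has a count of 0 in any library, so transcripts absent from 1 library are not analysed here and totals are not depths.

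Symbols came from GENCODE M21 (GRCm38) for 1385 of 1399 transcripts. edgeR 4.0.16 in R 4.3.3 fitted 7 group means to 14 libraries, with 7 residual degrees of freedom, TMM scaling, two-sided quasi-likelihood tests and Benjamini-Hochberg adjustment over 1399 transcripts at 0.05. The SE is the log2 fold change over the square root of the F statistic. Log2 CPM used a prior count of 2. DESeq2 1.42.0 and limma 3.58.1 on log2(CPM + 1) were alternatives, and the fit was tested on simulated data. The gene, the lists and the rule for named genes (nearest by correlation, and up to 4 called members of each list by p) were chosen with earlier results of these data known. Libraries of a group differed by more than counting noise, so all 14 were counted.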

Additional observations from a re-analysis of the deposited data

How the results depend on the processing

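Of 95 alternative values for Rnf213, 89 kept their direction and, where tested, their side of the threshold, or else moved by less than 1 SE of the main value. With NT2 in place of NT the value for cysteine starvation turned to -0.63 and that for full amino acid starvation, at -2.29, passed, as it did with NT and NT2 together (-1.63). With both controls the value for cysteine starvation, 0.70 against NT, was 0.034, and with the deposited totals it was 1.40, neither past the threshold. The cause was not tested. Cysteine against full amino acid starvation, at 1.66 ± 0.33 (SE), did not pass in the first experiment alone (1.75 ± 0.65). That experiment has fewer samples, and its libraries differed more within groups than those of the second. With 1 library left out the value ran between 1.58 and 1.73. Rescue against NT2, at 0.76, was 0.43 with the deposited totals, which moved the median of all transcripts by -0.33. The numbers of all transcripts called moved further. For cysteine starvation against NT it was 0, and 2 with DESeq2's size factors or without the 3 transcripts of highest count, 31 with the totals, 67 with DESeq2, 5 with limma, 248 with NT2, 8 with both controls and 0 to 112 with 1 library left out. For full amino acid starvation against NT it was 0, and 13 with limma, 459 with NT2, 249 with both and 0 to 20 with 1 left out. For cysteine against full amino acid starvation it was 210, and 548 with the totals (474 higher and 74 lower, against 36 and 174), 117 at a mean count of at least 20, 87 in 1 experiment alone, 18 without the 341 transcripts, an alternative chosen after seeing the data, and 18 to 193 with 1 left out. For cysteamine it was 147, and 93 with the totals, 0 with limma, 375 in 1 experiment alone, 327 without the 341 and 15 to 32 with 1 left out. For knockdown against NT2 it was 431, and 131 with limma and 191 to 237 with 1 left out. For rescue against knockdown it was 9, and 2 with the totals, 19 with DESeq2, 1 with limma, 58 in 1 experiment alone, 35 without the 341 and 1 to 4 with 1 left out. For rescue against NT2 it was 441, and 168 with limma, 287 without the 341 and 257 to 287 with 1 left out.

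The labels do not say that replicate numbers mark a shared culture or day. Same-numbered libraries deviated together with a correlation over 0.1 in 6 of 9 pairs of groups, not in all, so the numbers were not used as pairs. The experiments differed in this. Correlations ran between 0.092 and 0.281 in the second, all above 0, and between -0.214 and 0.287 in the first. Pairing is not shown to be absent. With a replicate block the counts were 80 for cysteine starvation against NT and 269 for cysteamine, against 0 and 147, and the block changed no call for Rnf213 (1.65, adjusted p = 0.00434 by edgeR, in cysteine against full amino acid starvation). Depth limits the starvation values, which rest on 6 to 86 counts a library.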

Other observations

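Rnf213 is one of the longest transcripts measured, and 54 other very long coding transcripts were set beside it. In the knockdown against NT2 17 of them were called higher and 3 lower by edgeR, where 17.6% of all transcripts were called higher and 13.2% lower. The muscle gene Ttn and the presynaptic gene Pclo were among the 17, and the receptor gene Lrp1, the cadherin gene Celsr1 and the calcium channel gene Itpr1 were the 3. Rnf213 had a lower value than 53 of the 54. With cysteamine 1 was called higher (Pclo) and 3 lower (Lrp1, Syne2 and Itpr1), against 5.5% of all transcripts higher and 5% lower, and all 54 lay above Rnf213. In the rescue against the knockdown 0 were called by edgeR, against 0.643% of all transcripts, with 3 at an unadjusted p under 0.05, and all 54 lay below Rnf213. These comparisons of the second experiment chose Rnf213, so its place among the 54 in them is a description only. In cysteine against full amino acid starvation 2 were called higher (Plec and Akap9) and 8 lower, near the 2.57% higher and 12.4% lower of all transcripts, and 53 of 54 lay below Rnf213, with Akap9 at 1.79 ± 0.58 above it. Per 1000 counts of these transcripts Rnf213 had 86.3 ± 8.45 counts in the rescue, 20.1 ± 0.392 in the knockdown, 21.5 ± 0.864 with cysteamine and 70.7 ± 2.71 in NT2 (SD, n = 2 each).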
